A study of Mus musculus with 6 samples.

Results

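The genes described here are those of the thioredoxin system in C2C12, a myoblast line of the mouse whose cells can fuse into muscle fibres. The list holds 10 genes, *Txnip*, *Arrdc4*, *Txn1*, *Txn2* and *Prdx1* to *Prdx6*, taken by name, with no threshold on their values. It was chosen with earlier results of these data known. All 10 were found among the 14548 genes of the expression files, matched by Ensembl identifier through the GENCODE M21 annotation of the mouse genome build GRCm38. RNA-seq was performed on 3 wild-type (WT) and 3 myostatin-knockout (MSTN-KO) libraries of these cells, kept in basal medium with fetal bovine serum, with no treatment named. The MSTN-KO cells are 1 line, C11, made by electroporation of a Cas9 plasmid whose guide RNA targets exon 3 of *Mstn*. In the labels all 6 libraries have the strain C11, so the groups were taken from the genotype. With a single edited line, the loss of myostatin and other differences between the lines or their cultures cannot be told apart. The labels do not say whether the 3 replicates were separate cultures, so p-values measure only the spread between these libraries, which may be technical.

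Thioredoxins are small proteins that reduce disulfide bonds in other proteins and are themselves reduced by thioredoxin reductases with NADPH. TXNIP, the thioredoxin-interacting protein, binds reduced thioredoxin and also limits glucose uptake. Its gene is known for being switched on by the sugar-sensing factors MondoA and MLX. Peroxiredoxins break down hydrogen peroxide with a reactive cysteine, and most of them are then reduced by thioredoxin. Myoblasts make hydrogen peroxide during growth and fusion, and skeletal muscle is a major site of TXNIP-regulated glucose uptake.

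Expression was given as FPKM, the fragments on a gene scaled by its exon length and by the mapped fragments of the library, which allows levels to be compared between genes of different length. The number of fragments per library is unknown. The smallest steps in the FPKM values put the depth of the libraries between 0.859 and 1.13 times that of WT replicate 1. FPKM summed to 723705 to 764524 in WT libraries and 856314 to 999579 in MSTN-KO libraries. *Mstn* itself was between 0 and 0.0586 FPKM in all 6 libraries, too low to check the labels. The muscle differentiation markers summed to 335 to 1114 FPKM in WT and 53.3 to 89.1 FPKM in MSTN-KO, where 13 of 13 tested markers fell. One of the 14 measured, *Myh8*, was under 0.1 FPKM throughout. *Myog*, a regulator of myoblast differentiation named after its values were seen, had 175, 148 and 47.3 FPKM in the WT libraries and 7.33, 10.2 and 11.6 FPKM in MSTN-KO. WT replicate 3 thus stood below the other WT libraries in differentiation. Myoblast markers summed to 950.3 to 1356 FPKM in WT and 596 to 737 FPKM in MSTN-KO, with 3 of 5 lower and 1 higher. Summed fibroblast markers were 183 to 256 FPKM in WT and 321 to 386 FPKM in MSTN-KO, with 1 of 3 tested higher and 1 lower. Most of this sum was *Col3a1*, at 172 to 240 FPKM in WT and 310 to 367 FPKM in MSTN-KO, while *Dcn* was lower. Adipocyte markers came to 2.06 to 2.92 FPKM in WT and 13.2 to 25.3 FPKM in MSTN-KO, with 2 of 2 tested higher and *Plin1* under 0.1. Most of this sum was the single gene *Lpl*, at 1.91 to 2.59 FPKM in WT and 11.5 to 24.2 FPKM in MSTN-KO. *Fabp4* reached at most 1.76 FPKM. Endothelial and immune markers summed to at most 2.43 FPKM in any library, and *Pecam1*, *Cdh5* and *Kdr* were under 0.1. Beside these marker counts, the test described below called 8.78% of all tested genes higher and 8.96% lower. The part of these shifts in the results on the thioredoxin system was not tested. In such bulk RNA, fewer cells of a type and less RNA per cell cannot be told apart.

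The promoters of *Txnip* and *Arrdc4*, the arrestin-like genes of the list, are shown because these genes stood lower in MSTN-KO and because sugar-sensing factors act on them through short DNA motifs. The sequences are the 250 bases before the RefSeq gene start on build GRCm38.p6, at chr3:96557707-96557956 on the plus strand for *Txnip* and chr7:68749239-68749488 on the minus strand for *Arrdc4*. Capitals mark 4 motifs searched on both strands, which are the E-box CACGTG, the NF-Y box core CCAAT, the antioxidant response core TGACNNNGC and a pair of CACGNG boxes 5 bases apart.
Txnip: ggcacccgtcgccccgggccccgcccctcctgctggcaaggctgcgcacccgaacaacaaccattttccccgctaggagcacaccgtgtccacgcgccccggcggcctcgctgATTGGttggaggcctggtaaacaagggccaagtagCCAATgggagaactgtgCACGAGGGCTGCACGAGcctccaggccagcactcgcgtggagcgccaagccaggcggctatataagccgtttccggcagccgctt
Arrdc4: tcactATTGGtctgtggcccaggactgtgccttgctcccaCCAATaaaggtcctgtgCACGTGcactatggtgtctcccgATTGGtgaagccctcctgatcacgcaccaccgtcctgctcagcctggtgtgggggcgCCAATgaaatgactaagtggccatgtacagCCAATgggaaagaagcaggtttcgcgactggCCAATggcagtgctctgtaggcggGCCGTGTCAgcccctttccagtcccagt

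The *Txnip* window holds the paired boxes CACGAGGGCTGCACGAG, first base at position -85 from the gene start. Boxes paired at this spacing are the layout of the carbohydrate response element. Only pairs with both boxes as CACGNG in the same direction were searched, and 15 of 32851 RefSeq windows of this length hold one (0.0457%). Other forms of the element were not counted. The same window has CCAAT on the reverse strand at -137 and on the forward strand at -102, a motif found in 33.8% of all windows. The *Arrdc4* window has 6 CCAAT matches, from -245 to -52. It also holds the E-box at -193 and TGACNNNGC at -28. These motifs occur in 6.02% and 10.2% of all windows. RefSeq gave a window for 9 of the 10 genes, all but *Prdx6*. Among the other 7, CACGTG occurred in that of *Prdx4* at -52, TGACNNNGC in that of *Prdx1* at -133, and CCAAT in those of *Prdx4* at -128 and *Txn2* at -75. Positions count from the RefSeq start. For *Prdx4* this start lies inside the GENCODE gene, so its window (chrX:155338461-155338710, minus strand) is within the span 155323918 to 155340754. The windows of *Txn1*, *Prdx2*, *Prdx3* and *Prdx5* held none of the 4 motifs. These matches describe letters only.

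*Txnip* was lower and *Prdx5* higher in MSTN-KO cells, and the other 7 tested genes did not pass the test. The test was limma on log2(FPKM + 1) over the 10837 genes that reached 1 FPKM in any library. A gene was called at a Benjamini-Hochberg adjusted p under 0.05. On this scale the change of a gene with low FPKM is understated. Thus 1 of the 9 tested genes was called higher, where 8.78% of all genes tested were, and 1 of 9 was called lower, where 8.96% were. These shares are near the background. The median log2 fold change, MSTN-KO minus WT, was 0.22 with 6 of 9 genes above 0, against -0.000781 over all genes tested with 5408 above 0. These numbers depended on the scaling. *Txn2* (-0.11), *Prdx2* (-0.0626) and *Prdx3* (-0.0192) were below 0 when libraries were scaled to a sum of 1000000, where the median of all genes was -0.26. With quantile normalization *Prdx2* was at -0.0092 and *Txn2* at 0.0047. The DEG criterion of the study's methods is a p under 0.05 with a log2 fold change above 1 or below -1. The methods do not say whether that p was adjusted, and here it was taken as unadjusted. The study used iDEP software, while here these cutoffs were applied to the limma fit. Under them only *Txnip* of the 9 was a downregulated DEG, where 2.3% of all genes were. None of the 9 was an upregulated DEG, where 1.21% of all genes were. The values of the groups did not overlap for 5 of the 9. *Txn1*, *Prdx4* and *Prdx5* were above WT in every MSTN-KO library, as 19.3% of all genes were. *Txnip* and *Prdx6* were below it, as 18.1% were. With 3 libraries against 3, the two-sided exact permutation test on a single gene cannot give less than p = 0.1, which it gave for these 5 genes and *Arrdc4*.

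**Figure D1:**
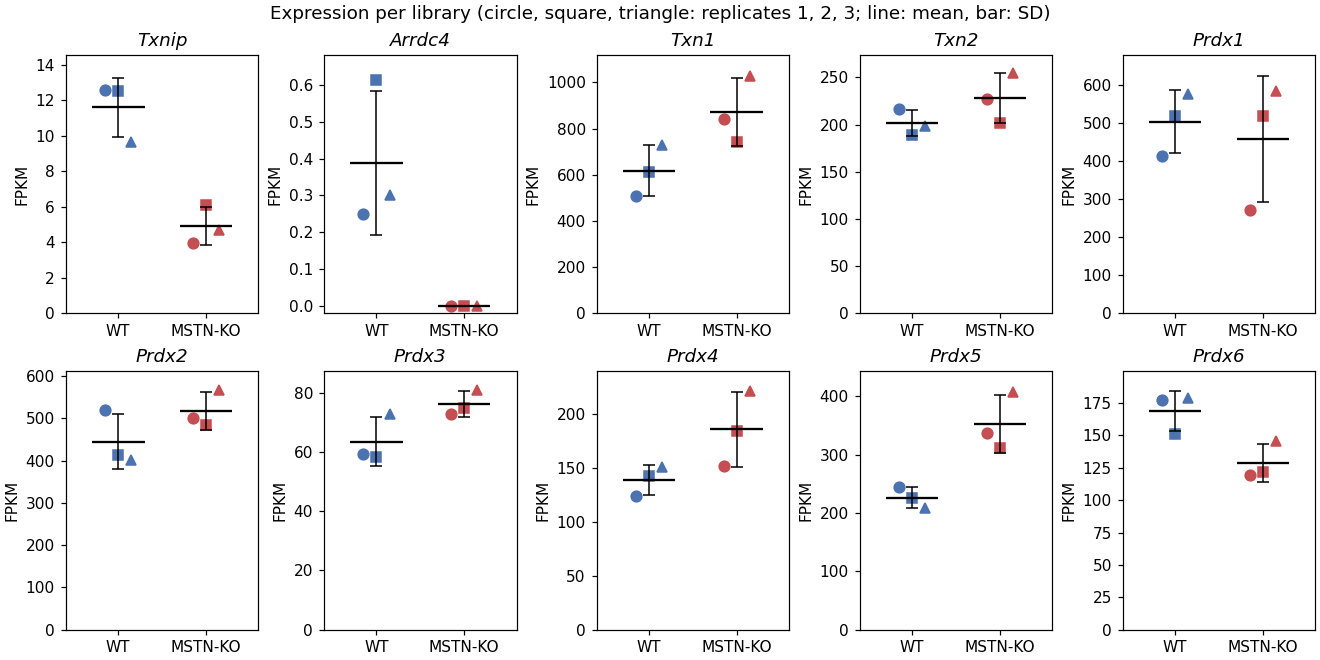
FPKM of the 10 genes in each of the 6 libraries, 1 panel per gene with its own axis, WT in blue and MSTN-KO in red. Symbols mark the replicate, lines the mean and bars the SD (n = 3). The groups lie apart for *Txnip*, *Arrdc4*, *Txn1*, *Prdx4*, *Prdx5* and *Prdx6* and overlap for the other 4.

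*Txnip* (ENSMUSG00000038393, chromosome 3, 96557957 to 96561883, plus strand, GRCm38) had 12.6, 12.5 and 9.67 FPKM in WT replicates 1, 2 and 3, and values are given in this order throughout. It had 3.94, 6.08 and 4.72 FPKM in the MSTN-KO libraries. All 3 MSTN-KO values lay below all 3 WT values, and the lowest WT value was that of replicate 3, the WT library lowest in *Myog*. Within MSTN-KO, *Txnip* was highest in replicate 2 and *Myog* in replicate 3. A link to differentiation was not tested. The means were 11.6 ± 1.67 and 4.91 ± 1.08 FPKM (SD, n = 3), a ratio of WT to MSTN-KO of 2.36. The log2 fold change was -1.10 (SE 0.17, limma adjusted p = 0.000876). Its call held in 16 of 16 alternative settings, with log2 fold changes from -1.38 to -0.98 and limma adjusted p from 8.64e-05 to 0.0121. An antisense gene, *Gm15441*, overlaps *Txnip* over 3927 bases on the opposite strand, and whether fragments were counted by strand is not given in the sources used here. *Gm15441* itself was not analysed here. The 539 tested genes of chromosome 3 had a median log2 fold change of 0.01.

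*Arrdc4* (ENSMUSG00000042659, chromosome 7, 68736995 to 68749241, minus strand), the alpha-arrestin closest to *Txnip*, is a further MondoA target that limits glucose uptake. It was at 0.251, 0.612 and 0.300 FPKM in WT and listed at 0 in all 3 MSTN-KO libraries. The levels were low in WT too and under the filter of 1 FPKM, so the gene was not among those tested and no fold is given. When all 14548 genes were tested without a filter, it was called lower (limma adjusted p = 0.0212). A 0 in such files can be a failed estimate. In these files 13 genes were above 5 FPKM in 1 library and listed at 0 in another.

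*Txn1* (ENSMUSG00000028367, chromosome 4, 57943373 to 57956411, minus strand) encodes the cytosolic thioredoxin that TXNIP binds. It was at 509, 613 and 729 FPKM in WT and at 841, 739.5 and 1029 FPKM in MSTN-KO. The groups did not overlap, but the highest WT value, in replicate 3, was close to the lowest of MSTN-KO, in replicate 2. The means were 617 ± 110 and 869.8 ± 147 FPKM (SD, n = 3), a ratio of 1.41, and the log2 fold change of 0.50 (SE 0.16) missed the threshold at a limma adjusted p of 0.0529. It was called in 5 of 16 alternatives, among them without WT replicate 3 (limma adjusted p = 0.036) and without MSTN-KO replicate 2 (limma adjusted p = 0.0154). Over the 16, log2 fold changes ran from 0.21 to 0.62 and limma adjusted p from 0.0154 to 0.238. *Txn2* (ENSMUSG00000005354, chromosome 15, 77915047 to 77929006, minus strand) encodes the mitochondrial thioredoxin. It was at 216, 189 and 199 FPKM in WT and 228, 201 and 255 FPKM in MSTN-KO, with overlapping groups. Its log2 fold change was 0.17 (SE 0.13, limma adjusted p = 0.371).

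Within each library, the ratio of *Txn1* to *Txnip* FPKM put the thioredoxin gene beside that of its inhibitor. It was 40.4, 49.0 and 75.4 in WT and 213, 122 and 218 in MSTN-KO. The groups did not overlap, with means of 55.0 ± 18.2 and 184 ± 54.4 (SD, n = 3). Expressed the other way, there were 1.95 ± 0.58 *Txnip* FPKM per 100 of *Txn1* in WT and 0.583 ± 0.207 in MSTN-KO (SD, n = 3). The ratio of *Txn1* to *Txn2* was 2.36, 3.25 and 3.66 in WT and 3.69, 3.67 and 4.04 in MSTN-KO, so the groups touched but did not overlap. These ratios do not depend on how a library is scaled, and they combine genes already described rather than adding new evidence.

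**Figure D2:**
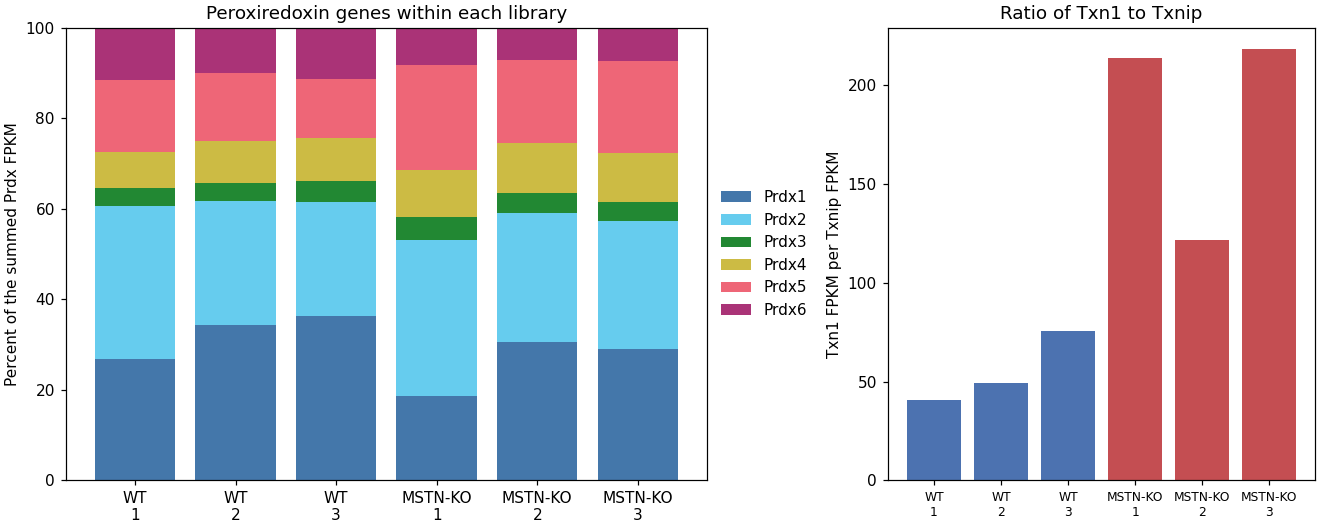
Left, the share of each peroxiredoxin gene in the summed FPKM of the 6 *Prdx* genes, in percent, for each library. Right, *Txn1* FPKM per *Txnip* FPKM in each library. *Prdx5* takes 13.2 to 15.9% in WT and 18.4 to 23.2% in MSTN-KO, and the right-hand ratio is at most 75.4 in WT and at least 122 in MSTN-KO.

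Among the peroxiredoxins, *Prdx5* rose. Its product is found in mitochondria, peroxisomes and cytosol and reduces peroxides and peroxynitrite. *Prdx5* (ENSMUSG00000024953, chromosome 19, 6906697 to 6910106, minus strand) was at 245, 225 and 209 FPKM in WT and at 337, 312 and 408 FPKM in MSTN-KO. Every MSTN-KO library was above every WT library. The means were 226 ± 17.8 and 352 ± 49.9 FPKM (SD, n = 3), a ratio of 1.56, with a log2 fold change of 0.63 (SE 0.13, limma adjusted p = 0.00672). The call held in 16 of 16 alternatives, at log2 fold changes of 0.34 to 0.71 and limma adjusted p of 0.00268 to 0.0345. *Prdx5* overlaps *Trmt112* by 409 bases on the opposite strand. *Trmt112* averaged 134 FPKM in WT and 186 FPKM in MSTN-KO, and its part in the value of *Prdx5* was not tested. The 101 tested genes within 2 Mb of *Prdx5* had a median log2 fold change of 0.15.

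*Prdx6* (ENSMUSG00000026701, chromosome 1, 161240112 to 161251219, minus strand) encodes the peroxiredoxin that is reduced through glutathione rather than thioredoxin. It was at 178, 151 and 179 FPKM in WT and at 119, 122 and 145 FPKM in MSTN-KO. The groups lay apart in the direction opposite to *Prdx5*. The means were 169 ± 15.5 and 129 ± 14.4 FPKM (SD, n = 3), and the log2 fold change of -0.39 (SE 0.13) had a limma adjusted p of 0.0537. It was called in 6 of 16 alternatives, among them without MSTN-KO replicate 3 (limma adjusted p = 0.0327). Its chromosome moved the same way. The 627 tested genes of chromosome 1 had a median log2 fold change of -0.25 with 79.4% below 0, and the 16 within 2 Mb of *Prdx6* had a median of -0.27. The part of the chromosome in the value of *Prdx6* was not tested. The like-named genes *Prdx6b* and *Prdx6-ps2* were not analysed here, and whether fragments are shared with them was not tested.

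*Prdx4* (ENSMUSG00000025289, chromosome X, 155323918 to 155340754, minus strand) encodes the peroxiredoxin of the endoplasmic reticulum. It was at 123, 142 and 150.3 FPKM in WT and at 151, 184 and 221 FPKM in MSTN-KO. The groups were apart by less than 2 FPKM, between WT replicate 3 and MSTN-KO replicate 1. The log2 fold change of 0.40 (SE 0.15) had a limma adjusted p of 0.0775. It was called in 2 of 16 alternatives, among them without MSTN-KO replicate 1 (limma adjusted p = 0.0452).

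*Prdx1*, *Prdx2* and *Prdx3* did not pass the test and their groups overlapped. *Prdx1* (ENSMUSG00000028691, chromosome 4, 116685544 to 116700822, plus strand), a cytosolic peroxidase, was at 413, 518 and 576 FPKM in WT and at 272, 518 and 583 FPKM in MSTN-KO. MSTN-KO replicate 1 was thus the lowest of the 6 libraries, and the other MSTN-KO libraries lay within or just above the WT range. The log2 fold change was -0.20 (SE 0.24, limma adjusted p = 0.599) with all libraries and 0.14 without MSTN-KO replicate 1. *Prdx2* (ENSMUSG00000005161, chromosome 8, 84969587 to 84974834, plus strand), its cytosolic relative, was at 520.0, 415 and 401 FPKM in WT and at 501, 485 and 568 FPKM in MSTN-KO. WT replicate 1 lay inside the MSTN-KO range. The log2 fold change was 0.22 (SE 0.14, limma adjusted p = 0.281). *Junb* and *Rnaseh2a* overlap *Prdx2* by 351 and 181 bases on the opposite strand. *Prdx3* (ENSMUSG00000024997, chromosome 19, 60864051 to 60874556, minus strand), whose product works in mitochondria together with TXN2, was at 59.3, 58.3 and 72.9 FPKM in WT and at 72.7, 74.6 and 80.96 FPKM in MSTN-KO. WT replicate 3 just exceeded the lowest MSTN-KO library. The log2 fold change was 0.26 (SE 0.13, limma adjusted p = 0.175). The like-named processed pseudogenes *Txn-ps1* and *Prdx2-rs3* were not analysed here.

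**Figure D3:**
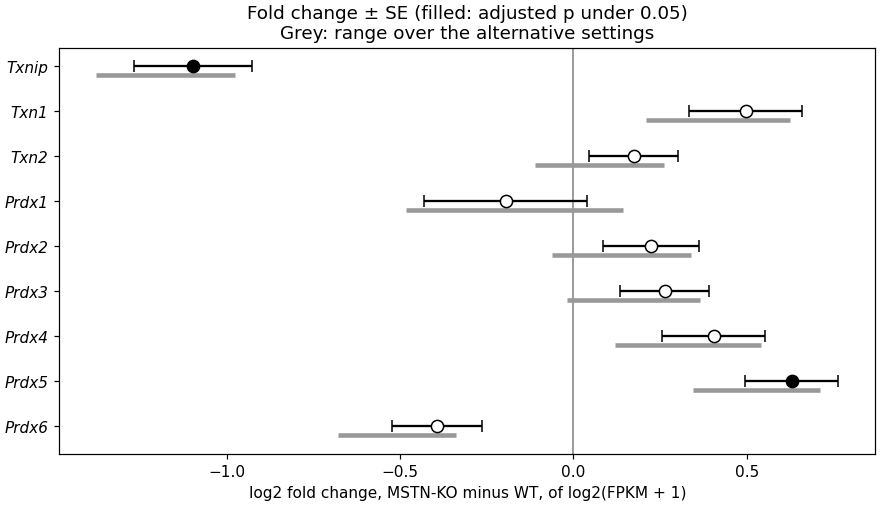
Log2 fold change (MSTN-KO minus WT, on log2(FPKM + 1)) of the 9 tested genes, with bars for the SE and grey lines for the range over the 16 alternative settings. Filled points passed an adjusted p under 0.05, and the grey lines of *Txn2*, *Prdx1*, *Prdx2* and *Prdx3* cross 0.

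The 6 *Prdx* genes together summed to 1538, 1509 and 1589 FPKM in WT and to 1453, 1695 and 2006 FPKM in MSTN-KO. These sums overlapped. As a share of all FPKM in a library, which summed higher in every MSTN-KO library, the 6 genes made up 0.204, 0.209 and 0.208% in WT and 0.164, 0.198 and 0.201% in MSTN-KO. On that scale every MSTN-KO library was below WT, so the direction of the means depended on the scaling. *Prdx5* made up 15.9, 14.9 and 13.2% of the sum in WT and 23.2, 18.4 and 20.3% in MSTN-KO. *Prdx6* made up 11.5, 10.02 and 11.2% in WT and 8.20, 7.19 and 7.24% in MSTN-KO. The ratio of *Prdx5* to *Prdx6* was 1.35 ± 0.161 in WT and 2.73 ± 0.151 in MSTN-KO (SD, n = 3), with no overlap. *Prdx4* took 8.03 to 9.46% in WT and 10.4 to 11.01% in MSTN-KO, also without overlap. The shares of *Prdx1*, *Prdx2* and *Prdx3* overlapped, and that of *Prdx1* was lowest in MSTN-KO replicate 1, at 18.7%.

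By mean FPKM, the order in WT was *Txn1*, *Prdx1*, *Prdx2*, *Prdx5*, *Txn2*, *Prdx6*, *Prdx4*, *Prdx3*, *Txnip* and *Arrdc4*. *Txn1* and *Prdx1*, *Prdx1* and *Prdx2*, and *Prdx5* and *Txn2* overlapped between neighbours in this order. In MSTN-KO, *Txn1* stood above all others without overlap, and *Prdx2* and *Prdx1* changed places, with overlapping ranges. *Prdx1* also overlapped *Prdx5* there, and *Txn2* overlapped *Prdx4*. *Prdx4* and *Prdx6* changed places, and these neighbours did not overlap in either group.

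The pattern of *Txnip* over the 6 libraries was matched most closely by *Actn3*, a fast-fibre actinin of the sarcomere. The measure was the root mean square difference of log2 values centred on each gene's mean, over 5921 genes with a mean of at least 10 FPKM. It was 0.0856 for *Actn3*, at 85.0, 77.5 and 57.6 FPKM in WT and 25.0, 37.9 and 32.5 FPKM in MSTN-KO. As with *Txnip*, WT replicate 3 was the lowest of WT and MSTN-KO replicate 1 the lowest of all. Genes were picked here for likeness over these same 6 libraries, so a shared order follows from the choice and is no separate result. The next were *Ncam1*, a cell adhesion molecule, at 0.103, *Chrna1*, a subunit of the muscle acetylcholine receptor, at 0.111, *Msln*, encoding mesothelin, at 0.118 and *Nid1*, a basement membrane protein, at 0.122. The genes nearest to *Prdx1* were *Sptssa*, *Apoo*, *Immp1l*, *Ppil3* and *Tpt1*, at 0.127 to 0.172. *Sptssa*, a subunit of serine palmitoyltransferase, was at 29.1, 31.7 and 38.3 FPKM in WT and 19.2, 34.2 and 32.4 FPKM in MSTN-KO. Its lowest value was in MSTN-KO replicate 1, which likewise follows from how it was picked.

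Of the thioredoxin partners, the reductases, sulfiredoxin, sestrins and clients such as ribonucleotide reductase, 19 of 21 listed genes were tested, with 2 called higher and 1 lower. These counts are near the 8.78% and 8.96% of all genes, and the median log2 fold change was 0.07. *Txnrd1*, the cytosolic thioredoxin reductase, was at 138 ± 4.88 FPKM in WT and 145 ± 11.6 FPKM in MSTN-KO (SD, n = 3), the log2 fold change being 0.07 (limma adjusted p = 0.701). *Srxn1*, which restores over-oxidised peroxiredoxins, was at 50.7 ± 5.50 and 55.8 ± 12.02 FPKM (SD, n = 3, limma adjusted p = 0.631). *Txnrd3* was at 5.71 ± 0.262 and 6.50 ± 1.64 FPKM (SD, n = 3, limma adjusted p = 0.609), and *Txnrd2* was not analysed here. None of these 3 passed the test. Of the 3 stress-induced sestrins, 2 were called higher, *Sesn1* at 7.43 ± 0.62 against 12.6 ± 2.76 FPKM (log2 fold change 0.67, SE 0.17, limma adjusted p = 0.0163). *Sesn2* had a log2 fold change of 0.46 (SE 0.15, limma adjusted p = 0.0454). The third sestrin, *Sesn3*, named after its values were seen, had a log2 fold change of -0.30 and did not pass the test (SE 0.19, limma adjusted p = 0.282), with overlapping groups. *Rrm2b*, a subunit of ribonucleotide reductase, an enzyme that thioredoxin and glutaredoxin recharge, fell from 2.83 ± 0.504 to 1.38 ± 0.558 FPKM (log2 fold change -0.71, SE 0.20, limma adjusted p = 0.0274). The calls of *Sesn1*, *Sesn2* and *Rrm2b* were lost in 4, 9 and 6 of the 16 alternatives.

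Of the glutaredoxins and other antioxidant enzymes, 4 of 13 tested genes were called higher and 0 lower, beside 8.78% and 8.96% of all genes. This list was chosen with earlier results of these data known, so the count is not independent evidence. The median log2 fold change was 0.19. *Sod3*, the extracellular superoxide dismutase, was at 1.41, 1.53 and 1.36 FPKM in WT and at 18.5, 12.4 and 19.0 FPKM in MSTN-KO. The groups were far apart, with a log2 fold change of 2.84 (SE 0.17, limma adjusted p = 2.82e-07). *Glrx*, the cytosolic glutaredoxin, rose from 25.8 ± 2.54 to 49.4 ± 3.56 FPKM (log2 fold change 0.91, SE 0.13, limma adjusted p = 0.00039). *Sod1*, the cytosolic superoxide dismutase, had a log2 fold change of 0.57 (SE 0.14, limma adjusted p = 0.0156). *Gpx4*, the lipid peroxidase, had one of 0.49 (SE 0.14, limma adjusted p = 0.0326). The calls of *Sod1* and *Gpx4* were lost in 4 and 7 alternatives.

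Of NRF2, the factor that switches on antioxidant genes, and its targets, 7 of 15 tested genes were called higher and 0 lower. Of all genes, 8.78% were called higher and 8.96% lower. The NRF2 list too was chosen with earlier results of these data known, so its count is not independent evidence. The median log2 fold change was 0.30. The list overlaps in function with *Txn1*, *Prdx1* and *Srxn1*, well-known NRF2 targets that did not pass the test. The ferritin chains were among those called. *Fth1* rose from 2757 ± 47.6 to 6040.2 ± 1193 FPKM (log2 fold change 1.11, SE 0.17, limma adjusted p = 0.000699). *Ftl1* rose from 7067 ± 624 to 13997 ± 2232 FPKM (log2 fold change 0.98, SE 0.17, limma adjusted p = 0.00224). *Gstm1*, a glutathione transferase, and *Hmox1*, the heme oxygenase, had log2 fold changes of 1.23 (limma adjusted p = 3.94e-05) and 0.82 (limma adjusted p = 0.00476). The other 3, named after their values were seen, were *Tkt*, *G6pdx* and *Pgd*, enzymes of the pentose phosphate pathway, the main source of NADPH for thioredoxin reductase. Their log2 fold changes were 0.80 (limma adjusted p = 0.00085), 0.56 (limma adjusted p = 0.00966) and 0.52 (limma adjusted p = 0.0213). *G6pdx* lost its call in 1 alternative and *Pgd* in 5. The 8 genes of the list that were not called were also named after their values were seen. The NRF2 gene *Nfe2l2* (log2 fold change -0.04), *Slc7a11* (-0.05) and *Me1* (-0.04) lay below 0. *Nqo1* (0.0065), *Gclc* (0.05), *Gclm* (0.29) and *Keap1* (0.29) lay above it. So did *Taldo1*, a further enzyme of the pentose phosphate pathway (0.30, limma adjusted p = 0.166).

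**Figure D4:**
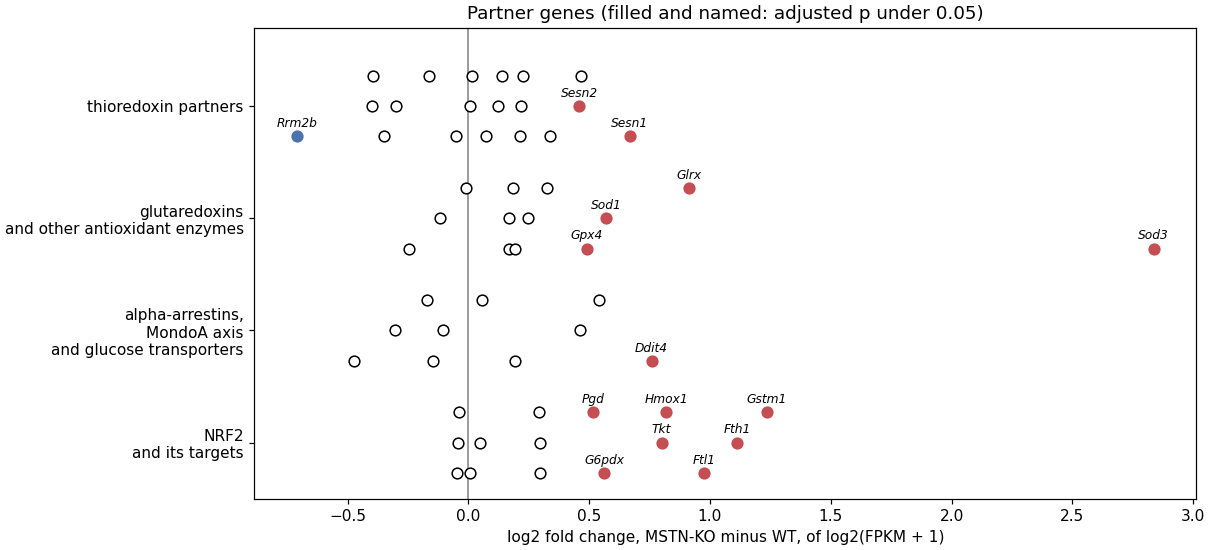
Log2 fold change (MSTN-KO minus WT, on log2(FPKM + 1)) of each tested gene in the 4 partner lists, with points spread vertically for legibility. Named, filled points passed an adjusted p under 0.05, and 14 lie above 0 while *Rrm2b* lies below it.

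Of the alpha-arrestins, the MondoA axis and the glucose transporters, 10 of 15 listed genes were tested, with 1 called higher, near the 8.78% of all genes, and 0 lower, where 8.96% of all genes were. The median log2 fold change was -0.02. *Ddit4*, which restrains mTOR signalling, rose from 44.4 ± 3.67 to 75.9 ± 8.18 FPKM (log2 fold change 0.76, SE 0.13, limma adjusted p = 0.00163). *Mlxip*, the gene of MondoA, and *Mlx*, that of its partner, were looked at after their values were seen. *Mlxip* was at 5.07 ± 1.45 FPKM in WT and 4.55 ± 0.191 FPKM in MSTN-KO (SD, n = 3, limma adjusted p = 0.716). *Mlx* was at 24.6 ± 1.86 and 22.1 ± 0.399 FPKM (SD, n = 3, limma adjusted p = 0.444). Neither passed the test, although *Mlx* was called lower when libraries were scaled to a sum of 1000000 (limma adjusted p = 0.0302).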

How the data were processed

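The study's methods name chloroform extraction for the sequenced RNA and Trizol for the RNA of the PCR assays. The authors sequenced the RNA on an Illumina HiSeq system and deposited FPKM per gene, 1 library per file. The submitters' processing notes name Bowtie 0.12.2 and the build mm8, with no role given. The annotation, strand setting and filters are not given in the sources used here. FPKM depends on the other genes of a library, so a few abundant genes can lower all others. Of 14548 genes, 14445 (99.29%) had a GENCODE M21 symbol, length and GC content.

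The 10837 genes reaching 1 FPKM in any library were fitted as log2(FPKM + 1) with limma 3.58.1 in R 4.3.3 (eBayes with a trend), 3 MSTN-KO against 3 WT libraries, with Benjamini-Hochberg adjustment over all of them. The fit was tested on simulated data. Permutation tests were exact and two-sided. The members and partner lists were chosen with earlier results of these data known. All 10 members are named. From each partner list the up to 4 called genes with the largest absolute log2 fold change are named, plus *Txnrd1*, *Txnrd2*, *Txnrd3* and *Srxn1*, and the 5 genes nearest in pattern to *Txnip* and to *Prdx1*.

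Alternatives were a pseudocount of 0.1, no filter, a filter on the mean, no trend, quantile normalization, scaling by the percentile 75, scaling to a sum of 1000000, a length and GC correction (mgcv 1.9.3), a replicate block alone or with that correction, the DEG criterion for counts, and each library left out. Sums, ratios and motif counts were made in Python 3.11.15 (pandas 2.3.3, numpy 2.4.6, scipy 1.17.1) and plots with matplotlib 3.10.9.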

Additional observations from a re-analysis of the deposited data

How the results depend on the processing

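*Txnip* and *Prdx5* kept their direction and call in all 16 alternatives, *Prdx5* with its smallest log2 fold change when libraries were scaled to 1000000. That scaling moved the median of all genes by -0.26, and gave 350 higher and 2367 lower calls over all genes against 952 and 971. Under it log2 fold changes reversed for *Txn2* (-0.11), *Prdx2* (-0.0626), *Prdx3* (-0.0192), *Txnrd1* (-0.21), *Txnrd3* (-0.11) and *Srxn1* (-0.16). Quantile normalization reversed *Prdx2* (-0.0092), *Txnrd1* (-0.0561) and *Mlxip* (0.008). None of these 7 genes was called in the reported fit or in these settings, and the cause was not tested. Members called higher numbered 2 with the length and GC correction (*Txn1*, *Prdx5*), 0 under the DEG criterion and 1 to 2 with a library left out. Members called lower numbered 2 without a filter (*Txnip*, *Arrdc4*), and 2 (*Txnip*, *Prdx6*) with quantile normalization, percentile 75 scaling, scaling to 1000000 or the length and GC correction, and 1 to 2 with a library left out. The DEG criterion, applied to the limma fit, gave 131 higher and 249 lower genes. The study obtained its DEGs with other software, and its counts differ from these.

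The replicate numbers did not pair the libraries. Deviations from the group means correlated at -0.0153, -0.13 and -0.14 for libraries of the same number and at -0.07 to 0.16 for others. With the replicate block, 3 members were called higher (*Txn1*, *Prdx4*, *Prdx5*) and 1 lower. With the replicate block and the length and GC correction, 2 were called higher (*Txn1*, *Prdx5*) and 2 lower (*Txnip*, *Prdx6*).

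Thioredoxin partners called higher were 0 without a filter, 1 without the trend, 1 with percentile 75 scaling, 0 when scaled to 1000000, 1 with the replicate block and 0 to 3 with a library left out. Those called lower were 0 without a filter, 2 with quantile normalization, 3 with percentile 75 scaling, 4 when scaled to 1000000, 2 with the length and GC correction, 3 with the replicate block and that correction and 0 to 2 with a library left out. Antioxidant enzymes called higher were 2 with quantile normalization and 2 to 5 with a library left out, and 1 was lower when scaled to 1000000. In the alpha-arrestin list 3 were higher with quantile normalization, 1 to 2 with a library left out, and 1 was lower when scaled to 1000000.

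With a library left out, calls over all genes ran from 423 to 1184 higher and 606 to 1251 lower, both fewest without WT replicate 2. Those higher also fell to 603 without WT replicate 3, 511 without MSTN-KO replicate 1 and 583 without MSTN-KO replicate 3. Leaving out a library reversed *Prdx1* (-0.41 to 0.14, above 0 without MSTN-KO replicate 1), *Txnrd3* (-0.0202 to 0.30) and *Srxn1* (-0.0365 to 0.27), below 0 without MSTN-KO replicate 3, and *Mlxip* (-0.22 to 0.0831, above 0 without WT replicate 1). The fragments behind each FPKM are unknown, so counting error could not be given, and 3 libraries a group limit the precision.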

Other observations

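The pair of CACGNG boxes 5 bases apart seen before *Txnip* occurred before 14 genes, of which 8 were tested. *Txnip* was called lower and *Man2b2*, a lysosomal mannosidase named after its values were seen, was called higher (log2 fold change 0.55, limma adjusted p = 0.047). The other 6 tested genes, among them *Nfkb2* and *Fnip1*, did not pass the test. Of all tested genes, 8.96% were called lower and 8.78% higher, so these counts are near the background. The pair was described for *Txnip*, so its call is not a result about genes with the pair.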
